A study of Mus musculus with 8 samples.

Results

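The genes compared here encode receptors of neurotransmitters and neuropeptides, and were read in cells sorted from mouse liver. They are 9 of the 46603 genes counted. Gabrb1, Gabrb2, Gabra4, Gabrp and Gabre encode subunits of the GABA-A receptor, Oprk1, Oprd1 and Oprm1 encode the kappa, delta and mu opioid receptors, and Chrm3 encodes the M3 muscarinic acetylcholine receptor. The set was put together around Oprk1, which was read in EGFP-positive cells, and Gabrb1, which was read in EGFP-negative cells. The counts that led to this choice are the counts given below, so the difference of every member between the groups is a description and carries no test.

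To label slowly dividing cells, the study used mice of the genotype R26rtTA het/H2B-EGFP het, in which doxycycline switches on a histone 2B-EGFP fusion that is diluted at every division. The transactivator is expressed from the ubiquitously active Rosa26 locus, so the label is not limited to a cell type, and the study describes hematopoietic cells that carry EGFP without doxycycline. All mice received doxycycline from postnatal day 0 to 5 and were analysed at 8 weeks of age, after which EpCAM-positive, CD45-negative liver cells were sorted into EGFP-positive cells, called liver label-retaining cells (LLRCs), and EGFP-negative cells, called non-LRC cells. Each of the 4 mice (JV602, JV621, JV624 and JV6314) gave 1 library of each kind, so that the 8 libraries form pairs from the same animal and the groups are labeled as different in EGFP alone. No mouse without the transgenes or without doxycycline is part of these data.

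GABA-A receptors are chloride channels made of subunits from several families, and the common forms need alpha and beta subunits to reach the cell surface. Opioid receptors couple to the inhibitory Gi and Go proteins, which lower cyclic AMP, while the M3 receptor couples to Gq, which releases calcium from intracellular stores. These receptors are best known from neurons, and in bile ducts muscarinic signalling is known for its effect on the secretion of cholangiocytes, the epithelial cells of the ducts.

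The opioid receptor genes are related in sequence, as are the beta subunit genes Gabrb1 and Gabrb2, so it was examined whether reads of one could be counted for another. Between the coding sequences of Oprk1 and its relatives, 61.4% of aligned bases were identical for Oprd1, 65.0% for Oprm1 and 60.5% for Oprl1. Over all annotated transcripts of these genes, coding or not, the longest run of bases that Oprk1 shared without a mismatch was 25. Gabrb1 was identical to Gabrb2 at 70.7% of aligned coding bases, and no run shared by their transcripts was longer than 20 bases. The 90 coding bases in which the 3 opioid receptor genes are most alike are shown because they are where reads could be confused most easily. They are given 5′ to 3′ on the coding strand of GRCm38, and capitals mark the 20 positions at which at least 1 of the 3 genes differs.
Oprk1, chr1:5598736-5598825, plus strand: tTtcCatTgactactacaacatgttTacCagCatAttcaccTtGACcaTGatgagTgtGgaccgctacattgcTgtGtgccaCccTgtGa
Oprd1, chr4:132117233-132117322, minus strand: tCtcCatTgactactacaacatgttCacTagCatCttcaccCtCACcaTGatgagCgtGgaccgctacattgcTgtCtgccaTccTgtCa
Oprm1, chr10:6829031-6829120, plus strand: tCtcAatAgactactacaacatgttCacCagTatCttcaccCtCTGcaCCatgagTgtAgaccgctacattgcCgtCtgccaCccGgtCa

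The stretch of the same length in which Gabrb1 and Gabrb2 are most alike holds 14 differing positions, again in capitals.
Gabrb1, chr5:71869483-71869572, plus strand: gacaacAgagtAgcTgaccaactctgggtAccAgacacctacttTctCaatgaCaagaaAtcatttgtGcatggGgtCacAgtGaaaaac
Gabrb2, chr11:42487280-42487369, plus strand: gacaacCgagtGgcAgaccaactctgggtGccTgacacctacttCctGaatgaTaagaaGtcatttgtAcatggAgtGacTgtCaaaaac

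All 9 members had at least 1 count, but few had many. Where 4 values of a group follow each other, the mice are in the order JV602, JV621, JV624, JV6314. The sum over the 8 libraries was 479 counts for Gabrb1, 394 for Oprk1, 181 for Gabrp, 94 for Chrm3, 26 for Gabre, 25 for Oprm1, 3 for Oprd1, 2 for Gabra4 and 1 for Gabrb2. Only Oprk1 and Chrm3 passed the expression filter under which 13605 genes were tested between the groups. LLRC libraries held 7860021 to 9851819 counts in total, and non-LRC libraries 4670132 to 8056103. A gene with 3 counts therefore stands at 0.291 to 0.626 CPM (counts scaled by TMM-adjusted library size), and a count of 0 leaves levels up to that limit undetected. All 12 cholangiocyte markers examined were read in every LLRC library and 11 or 12 of them in the non-LRC libraries. The non-LRC library of JV621 stood apart, with 14234 genes detected against 16042 to 20430 in the others.

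**Figure D1:**
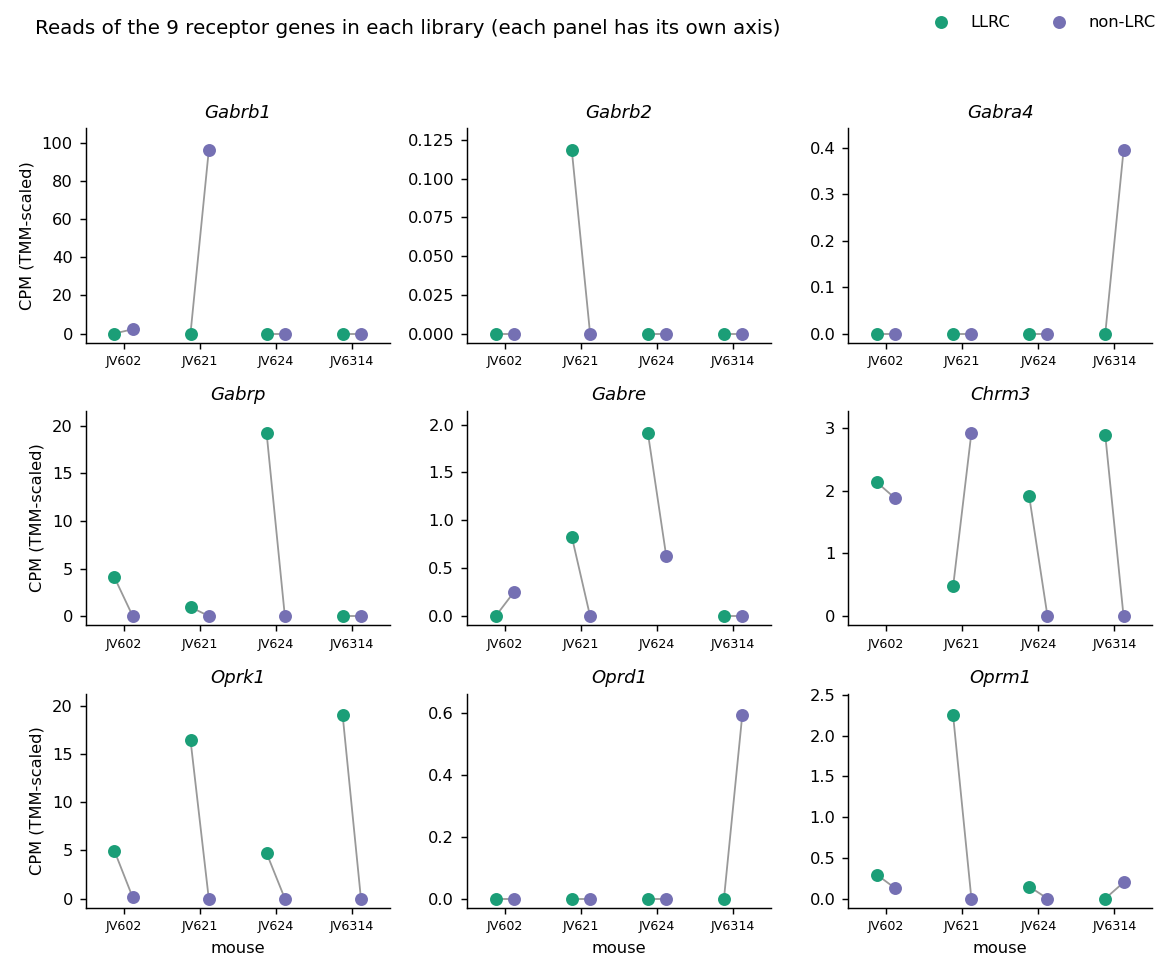
Level of each receptor gene in each library, in CPM after TMM scaling on the vertical axis, for the 4 mice on the horizontal axis. Green points are LLRC libraries, purple points are non-LRC libraries, and a grey line joins the libraries of a mouse. Oprk1 is higher in the LLRC library of each mouse, whereas the Gabrb1 panel rests on the non-LRC library of JV621 at 96.3 CPM.

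Oprk1 was read in the LLRCs of every mouse and hardly read in non-LRC cells. The gene lies at chr1:5588466-5606131 on the plus strand of GRCm38, and none of its exon bases are shared with another gene. In LLRCs, 51 reads were counted for JV602, 139 for JV621, 32 for JV624 and 171 for JV6314. Non-LRC cells of the same mice gave 1, 0, 0 and 0. The lowest LLRC library thus held more reads than all non-LRC libraries together, and the groups did not overlap. Scaled to library size, the LLRC libraries stood at 4.94, 16.4, 4.71 and 19.0 CPM, with a mean of 11.3 ± 7.51 CPM (SD, n = 4), so that the levels of JV621 and JV6314 lay well above those of JV602 and JV624. The non-LRC mean was 0.0313 CPM, and the pooled ratio was 274.8, with a 95% counting interval from 49.0 to 10881. The pooled ratio divides the summed counts of each group by its summed TMM-adjusted library sizes, so that deeper libraries weigh more, and it differs from the ratio of the mean CPM values. This interval covers counting error only and is wide because its lower group rests on a single read. Leaving out any LLRC library gave pooled ratios from 209.9 to 340.8, and leaving out the non-LRC library of JV621, JV624 or JV6314 gave ratios from 202.8 to 220.4. Without the non-LRC library of JV602 no non-LRC read remained.

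Such a pattern is uncommon but not confined to Oprk1. Of the 13605 genes tested, 2.15% had their lowest LLRC value above their highest non-LRC value. Of the 16664 genes with 30 or more counts in all, 292 genes (1.75%) had at most 1 count in each non-LRC library, and 201 genes (1.21%) had at most 1 count in each LLRC library. Since Oprk1 was chosen for this contrast, nothing is read from its place among them.

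The other opioid receptors were near or under the limit of detection in most libraries. Oprm1 (chr10:6758506-7038198, plus strand), the main target of morphine, had 3, 19, 1 and 0 counts in LLRCs against 1, 0, 0 and 1 in non-LRC cells. Its LLRC mean was 0.671 ± 1.06 CPM and its non-LRC mean 0.0806 ± 0.0977 CPM (SD, n = 4), and the pooled ratio was 8.04 with a counting interval from 1.99 to 70.4. Most of these reads came from the LLRC library of JV621, without which the pooled ratio was 1.85 with an interval from 0.265 to 20.5. Without the non-LRC library of JV6314 it was 12.7. Of its exon bases, 1.19% are shared with another gene. Oprd1 (chr4:132110726-132144486, minus strand), the receptor of enkephalins, had 3 counts in the non-LRC library of JV6314 and 0 in every other library. The mice with the most Oprk1 reads in LLRCs were JV6314 and JV621, of which the former had no Oprm1 read in its LLRC library.

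Reads of other cell types were compared beside Oprk1. Of 10 neuron markers, only 1 or 2 were read with 3 or more counts in any LLRC library, and Tubb3, Nefl, Uchl1 and Th had 0 counts in every library. The summed level of these markers, nearly all of it Syt1, was 33.2 to 40.2 CPM in LLRCs against 5.85 to 113.8 CPM in non-LRC cells, so the groups overlapped. Of 8 leukocyte markers, 2 (Ptprc and Itgam) had 3 or more counts in each LLRC library. The summed level of all 8 was 3.49 to 9.55 CPM in LLRCs against 4.51 to 8.84 CPM in non-LRC cells. Much of it was Itgam, which differed little between libraries, at 2.91 to 3.82 CPM in LLRCs and 3.75 to 4.80 CPM in non-LRC cells. Cd3e and Cd79a, the defining markers of T and B cells, were at 0 in every library. Ptprc, which encodes CD45, stood at 0.485, 4.02, 2.06 and 6.55 CPM in LLRCs of JV602, JV621, JV624 and JV6314, respectively, and at 0 in all non-LRC libraries but that of JV6314, with 1.38 CPM. Cd52, Laptm5 and Coro1a were at 0 in every LLRC library, and Lyz2 was lower in LLRCs of each mouse, with 0 to 2 counts against 3 to 24. The highest values of Ptprc and Oprk1 fell in the same LLRC libraries, and the part of leukocytes in the Oprk1 reads was not tested. In bulk libraries such as these, fewer cells of a type and less RNA per cell cannot be told apart.

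Gabrb1, a beta subunit of the GABA-A receptor, was read in 2 of 4 non-LRC libraries and in no LLRC library. It lies at chr5:71658113-72149037 on the plus strand, and 0.332% of its exon bases are shared with Gabra4 on the opposite strand. Non-LRC cells of JV602 gave 18 counts, those of JV621 gave 461, and those of JV624 and JV6314 gave 0. The level was 96.3 CPM in JV621 and 2.25 CPM in JV602, so a single library held most of the reads and the groups overlapped at 0. The mean was 24.6 CPM with an SD of 47.8 CPM (n = 4), larger than the mean itself. Against a floor of 3 counts per library, the non-LRC mean of Gabrb1 was at least 69.4-fold higher. Without the library of JV621 it was at least 2.12-fold higher, a value that rests on the 18 counts of JV602 alone. JV624 and JV6314, at 0 in both libraries, showed no difference. Of the genes with 30 or more counts in all, 0.774% had no read in any LLRC library.

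The library of JV621 was therefore compared with the others for genes that behave like Gabrb1, a comparison added after the values were seen. Of the 5311 genes at 20 CPM or more in that library, 15 genes, or 0.282%, had 3 or fewer counts in every LLRC library and in at least 2 of the other non-LRC libraries. Gabrb1 is among them. The corresponding number was 24 in the non-LRC library of JV6314, 1 in each of the other non-LRC libraries and 0 in each of the 4 LLRC libraries, for which the roles of the groups were exchanged. The reverse was more frequent. Of 3684 genes at 20 CPM or more in all 7 other libraries, 92 (2.50%) had 3 or fewer counts in the non-LRC library of JV621, whereas 0 to 14 genes were missing in this way from any other library. The non-LRC library of JV6314 also held the reads of Oprd1 and Gabra4, and 10 pancreatic acinar markers summed to 1980 CPM there, against 2.13 to 23.5 CPM in the other libraries. The part of acinar RNA in those reads was not tested.

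**Figure D2:**
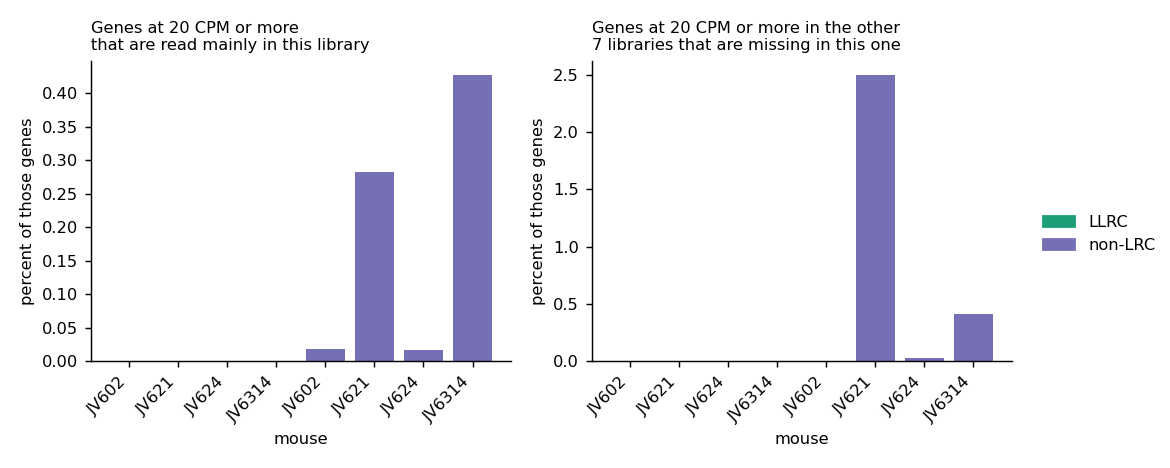
Genes read mainly in a single library (left) and genes at 3 or fewer counts in a single library (right), in percent of genes at 20 CPM or more, for each library on the horizontal axis, with non-LRC libraries in purple. The LLRC libraries are at 0 in both panels, and the non-LRC library of JV621 is the highest on the right, with 2.50%.

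Markers of other cell types also differed in the non-LRC library of JV621. The summed level of 12 endothelial markers was 822 CPM there, 208 to 566 CPM in the other non-LRC libraries and 29.2 to 58.9 CPM in LLRCs. Much of the gap among non-LRC libraries came from Sox17, at 194.4 CPM in JV621 against 2.38 to 9.47 CPM in the others. Tie1 and Lyve1 were at 0 in that library, and Kdr and Pecam1 were higher in JV6314. In the order of the mice, these sums in non-LRC cells were 208, 822, 474 and 566 CPM, beside 18, 461, 0 and 0 counts of Gabrb1. The summed level of 7 Schwann cell and glia markers was 181.9 CPM in the JV621 library, most of it from Mbp. It was 17.1 to 34.9 CPM in the other libraries, and Sox10, a marker of the same list, was at 0 everywhere. Neuron markers were at their lowest in the same library, at 5.85 CPM. The part of these cells in the Gabrb1 reads was not tested. The gene on the other side of Gabrb1, Commd8, was also looked up after the values were seen. It stood at 76.4, 189.6, 89.8 and 92.9 CPM in the non-LRC libraries and at 89.4 to 154.0 CPM in LLRCs. Its level was thus highest in the non-LRC library of JV621, which held most Gabrb1 reads. Reads of this neighbor were not limited to the libraries with Gabrb1 reads.

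Gabrp, which encodes the pi subunit known from epithelia outside the nervous system, showed the opposite distribution. The gene (chr11:33550781-33578959, minus strand) had 42 counts in the LLRCs of JV602, 8 in JV621, 131 in JV624 and 0 in JV6314, with 0 in each non-LRC library. The LLRC libraries stood at 4.07, 0.946, 19.3 and 0 CPM, a mean of 6.07 ± 8.97 CPM (SD, n = 4). At least 3 counts were thus present in 3 of 4 LLRC libraries, and the library of JV6314, which had the most Oprk1 reads, had none. Against the floor of 3 counts per library, the LLRC mean of Gabrp was at least 11.7-fold higher. It was at least 3.24-fold higher without the library of JV624 and at least 13.0-fold to 15.7-fold without any other LLRC library. Of the genes with 30 or more counts, 1.37% had 0 counts in every non-LRC library.

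Gabre, the epsilon subunit gene (chrX:72255999-72274803, minus strand), had 0, 7, 13 and 0 counts in LLRCs against 2, 0, 4 and 0 in non-LRC cells. The LLRC mean was 0.685 ± 0.906 CPM and the non-LRC mean 0.221 ± 0.298 CPM (SD, n = 4), and the counting interval of the pooled ratio of 2.33, from 0.903 to 7.09, includes equality. Without the LLRC library of JV624 the pooled ratio was 1.02, and it was 5.16 when the non-LRC library of the same mouse was left out. Gabra4, an alpha subunit gene adjoining Gabrb1 (chr5:71569749-71658308, minus strand), had 2 counts in the non-LRC library of JV6314 and none elsewhere. The library with 461 counts of Gabrb1 thus held no read of its neighbor. Gabrb2, another beta subunit gene (chr11:42419757-42629028, plus strand), was read once, in LLRCs of JV621.

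In all, 17 GABA-A subunit genes are described, of which 12 are no members. Of these 12, 9 had at least 1 count, and Gabra5, Gabrg3 and Gabrr3 had none. Reads of the families were distributed unevenly. Summed over Gabrb1 and Gabrb2, which encode subunits of the beta family that the common forms of the channel need, the LLRC libraries held 0, 1, 0 and 0 counts and the non-LRC libraries 18, 461, 0 and 0 counts. Alpha subunits had 33, 29, 0 and 2 counts in LLRCs against 8, 5, 16 and 10 in non-LRC cells. The LLRC library of JV624, which had the most Gabrp reads, therefore had no read of any alpha subunit, nor of Gabrb1 or Gabrb2. Only the non-LRC libraries of JV602 and JV621 held 3 or more counts both of alpha subunits and of Gabrb1, with alpha counts close to the floor in the latter. The gamma subunit gene Gabrg1 had 0, 17, 2 and 0 counts in LLRCs and none in non-LRC cells.

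Among these other subunits, Gabra3 was the only gene that passed the filter. Its counts were 26, 15, 0 and 0 in LLRCs against 7, 0, 13 and 8 in non-LRC cells (log2 fold change -0.06, standard error 1.39, adjusted p = 1 in edgeR's quasi-likelihood test). Gabrd, which encodes the delta subunit of extrasynaptic receptors, had 7, 2, 9 and 8 counts in LLRCs against 2, 0, 9 and 38 in non-LRC cells. Gabrq, the theta subunit gene, had 37 counts in the non-LRC library of JV624 and none elsewhere. Gabrr2, a rho subunit gene, had 0, 2, 2 and 8 counts in LLRCs and none in non-LRC cells. These subunits were thus each at 0 in at least 1 library.

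**Figure D3:**
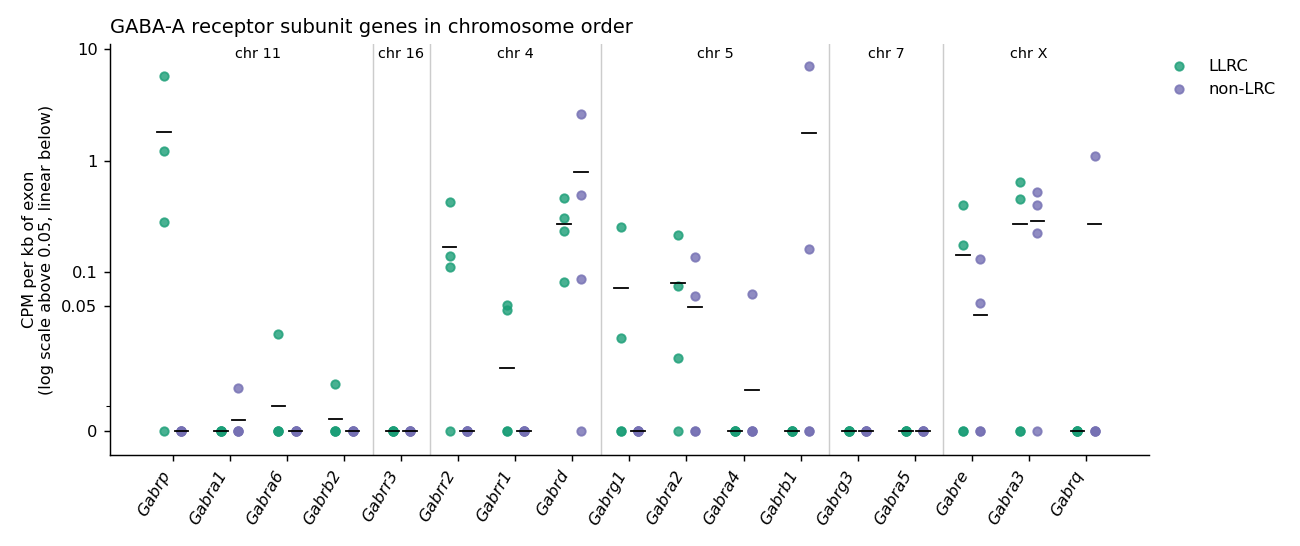
Level of the 17 GABA-A subunit genes in CPM per kilobase of exon, on an axis that is linear up to 0.05 and logarithmic above, with genes in order along their chromosomes. Points are libraries (green, LLRC and purple, non-LRC), and black bars are means of 4 libraries. Gabrp in LLRCs (mean 1.80) and Gabrb1 in non-LRC cells (mean 1.78) are the highest means, and no subunit reaches a level above 0 in every library.

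Chrm3 was read at a low level in LLRCs of every mouse and in 2 of 4 non-LRC libraries. The gene lies at chr13:9875486-10360847 on the minus strand. In the order JV602, JV621, JV624 and JV6314, LLRCs gave 22, 4, 13 and 26 counts and non-LRC cells 15, 14, 0 and 0 counts. The groups overlapped, and JV621 had the higher level in its non-LRC library. The mean was 1.85 ± 1.01 CPM in LLRCs against 1.20 ± 1.45 CPM in non-LRC cells (n = 4, SD), and the pooled ratio was 1.57 with a counting interval from 0.997 to 2.52. Without the non-LRC library of JV621 the pooled ratio was 2.43 (interval 1.37 to 4.59), and without that of JV624 it was 1.16 (interval 0.736 to 1.86). Of the other muscarinic receptors, only Chrm1 was read, with 20, 9, 0 and 2 counts in LLRCs against 1, 0, 0 and 0 in non-LRC cells. Chrm2, Chrm4 and Chrm5 had 0 counts in every library.

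Levels were compared between members per kilobase of exon, in CPM per kb. In LLRCs the order of the means was Gabrp (1.80 ± 2.66), Oprk1 (1.23 ± 0.821), Chrm3 (0.296 ± 0.161), Gabre (0.145 ± 0.191), Oprm1 (0.0835 ± 0.132) and Gabrb2 (0.00465), with the other members at 0. The SD of Gabrp exceeded its distance from Oprk1, and those of Gabre and Oprm1 exceeded the distance between them, whereas the lowest LLRC library of Oprk1 (0.514) lay above the highest of Chrm3 (0.462). In non-LRC cells Gabrb1 was the highest at 1.78 ± 3.45, followed by Chrm3 at 0.192 ± 0.232, Gabre at 0.0466 ± 0.0630, Oprd1 at 0.0368, Gabra4 at 0.0162, Oprm1 at 0.0100 and Oprk1 at 0.00342. None of these neighbors in the order differed beyond their spread. Among the 27391 genes with any count and a known exon length, 58.4% had a lower mean than Oprk1 in LLRCs, 63.2% a lower mean than Gabrp in LLRCs, and 61.3% a lower mean than Gabrb1 in non-LRC cells.

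The members differed in which libraries held their reads. Between 2 and 5 members were read with 3 or more counts in each LLRC library, and 1 or 2 in each non-LRC library. In each mouse the LLRC library was the deeper one, so this cutoff is easier to reach there. Over all genes, 18488 to 20430 were detected in LLRC libraries and 14234 to 18930 in non-LRC libraries. Over the 8 libraries, the Pearson correlation of log2(CPM + 0.5) was 0.45 between Oprk1 and Gabrp, 0.35 between Oprk1 and Chrm3, 0.26 between Gabrp and Chrm3, 0.44 between Gabrb1 and Chrm3, -0.33 between Gabrb1 and Gabrp and -0.48 between Oprk1 and Gabrb1. These values describe 8 libraries in 2 groups and carry no test. The genes with the distribution most like that of Oprk1 were Cxcl10 (r = 0.99), Ptpdc1 (r = 0.97) and Aldh1l2 (r = 0.97), which had 12 to 105 counts in each LLRC library and 0 to 5 in the non-LRC libraries. For Gabrb1 they were Pdpk1 (r = 0.97), Gm14296 (r = 0.97) and Tbc1d23 (r = 0.97), all with their highest counts in the non-LRC library of JV621. Unlike Gabrb1, all of these were read in every library. Pdpk1, for example, had 884 counts in that library and 101 to 356 in the others. For Gabrp they were Fbxl12os (r = 0.92), Tbc1d10b (r = 0.89) and Swt1 (r = 0.89), and for Chrm3 Gprasp1 (r = 0.95), Dcbld1 (r = 0.95) and Dnttip1 (r = 0.94).

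To place the receptors in their pathways, 103 further genes for ligands, transport, trafficking and signalling were examined, of which 53 passed the filter. By edgeR's quasi-likelihood test none of the 53, and none of all 13605 genes (0%), passed an adjusted p of 0.05. DESeq2 called 5 of the 53 and 221 of all genes, edgeR's exact test without a filter 2 of 90 and 115 of all genes, and limma 0 of both. At an unadjusted p below 0.05, 6 of the 53 passed, all lower in LLRCs, beside 485 of all genes (3.56%) lower and 217 (1.60%) higher. By limma, 9 of the 53 passed, 3 of them higher in LLRCs, and of 891 genes in all 576 were higher, so the balance of directions depends on the tool. The median log2 fold change (LLRC over non-LRC) was -0.20 for the 53 genes and -0.01 for all genes, and 20 of the 53 values were positive.

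Of the GABA pathway, Gabbr1 and Slc6a13 had an unadjusted p below 0.05. Gabbr1, a subunit of the G protein coupled GABA-B receptor, had 20, 15, 41 and 31 counts in LLRCs against 32, 74, 47 and 75 in non-LRC cells (log2 fold change -1.66, standard error 0.64, unadjusted p = 0.0287, adjusted p = 0.85 in edgeR's test). It was lower in LLRCs of all 4 mice, but its unadjusted p was 0.0594 in the edgeR fit with the mouse as a block, and it passed 0.05 no longer when any of 5 libraries was left out. Its partner Gabbr2 had 2, 2, 2 and 4 counts in LLRCs and none in non-LRC cells, at or near the floor. Slc6a13, a GABA transporter of the plasma membrane, stood at 2.03 ± 0.981 CPM in LLRCs against 10.7 ± 7.22 CPM in non-LRC cells (n = 4, SD), and the groups did not overlap. Its log2 fold change was -2.40 (standard error 0.67, unadjusted p = 0.00603, adjusted p = 0.469 in the same test). Gad1, which makes GABA, and Slc32a1, which loads it into vesicles, had 0 counts in every library, and Gad2 had 1 count in each of 2 libraries. Abat and Aldh9a1, enzymes of GABA metabolism, were read at 13.2 and 43.9 CPM in LLRCs and 36.9 and 61.1 CPM in non-LRC cells, with adjusted p = 1 for both in edgeR's test.

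Of 14 genes for the trafficking and anchoring of GABA-A receptors, 11 were tested and none had an unadjusted p below 0.05. The most abundant were Ubqln1, at 94.2 and 156.2 CPM in LLRCs and non-LRC cells, and Gabarap, at 86.0 and 94.8 CPM. Trak1, which encodes a kinesin adaptor, had a log2 fold change of -0.77, with a standard error of 0.52. Of the chloride cotransporters, which set the chloride gradient that GABA-A channels use, Slc12a2 and Slc12a7 had log2 fold changes of -0.79 and 0.31 with standard errors of 0.60 and 0.46.

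**Figure D4:**
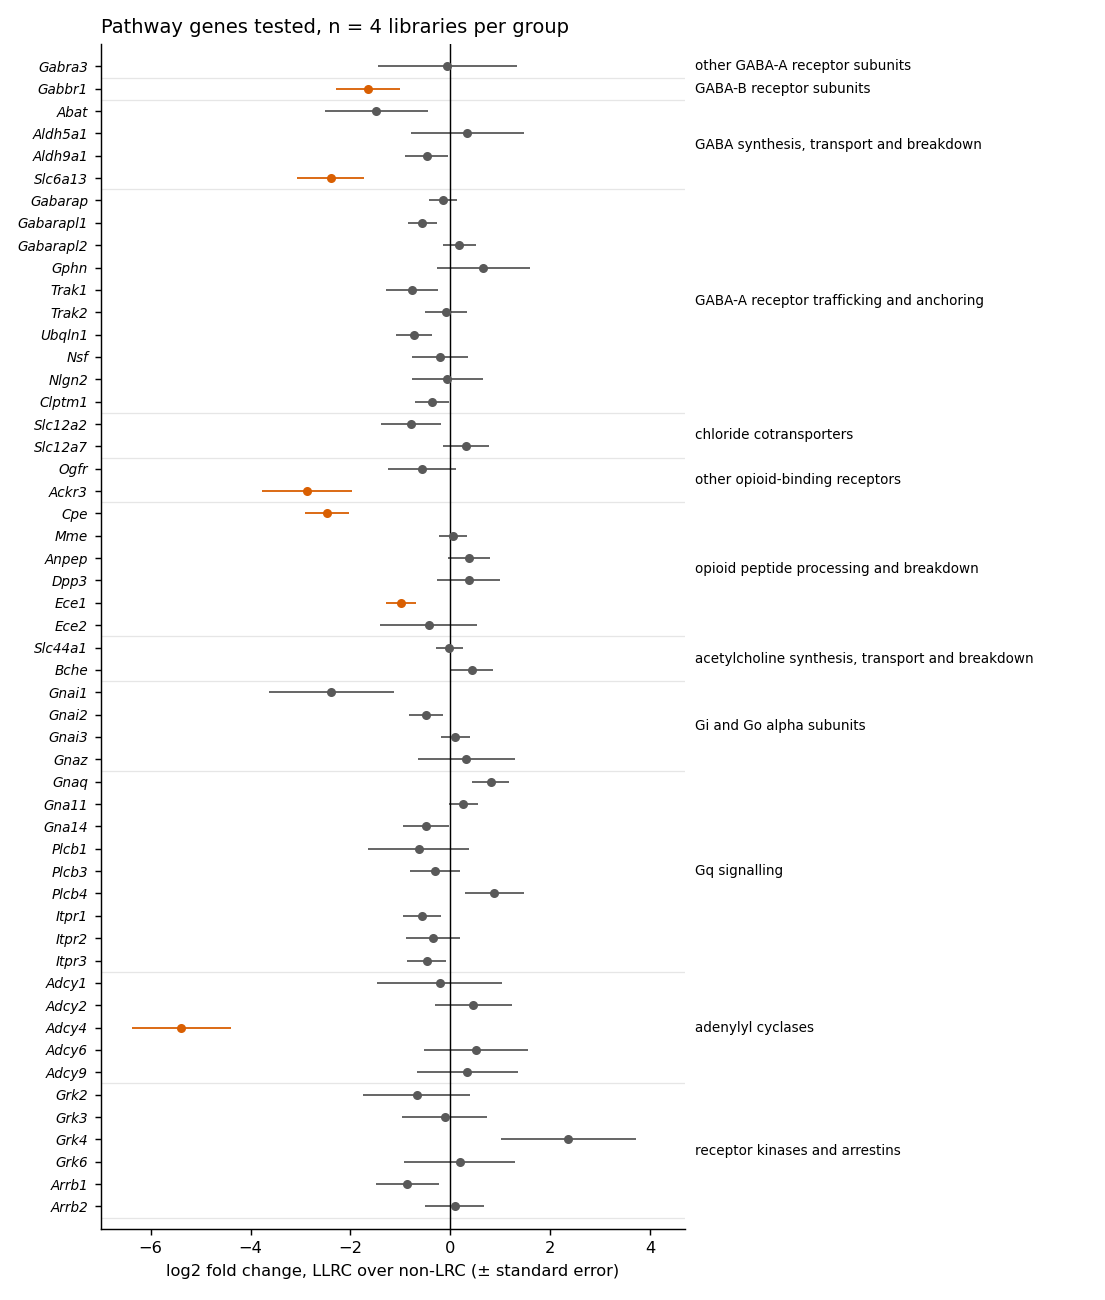
Log2 fold changes (LLRC over non-LRC) with standard errors from edgeR for 52 of the 53 pathway genes tested, grouped by the lists on the right, with 4 libraries per group. Orange marks the 6 genes with an unadjusted p below 0.05, all on the negative side, none of which passed adjustment over 13605 genes.

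Of the opioid pathway, the peptide precursors were hardly read. Penk, the precursor of enkephalins, had 0 counts everywhere, and Pdyn, the precursor of dynorphins, which are the ligands of the kappa receptor, had 3 counts in the LLRC library of JV602 only. Pomc had 5, 0, 1 and 2 counts in LLRCs and 2 counts in the non-LRC library of JV624. Oprl1, the nociceptin receptor, had no count. In 3 of the 4 LLRC libraries with Oprk1 reads, Pdyn thus had no count.

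Cpe, which trims peptide precursors, stood at 31.4 ± 14.7 CPM in LLRCs against 174.0 ± 59.4 CPM in non-LRC cells (n = 4, SD), and the groups were fully apart. The log2 fold change was -2.47 (standard error 0.45, unadjusted p = 0.000353, adjusted p = 0.124 in edgeR's test). Ece1, an endothelin-converting enzyme that also degrades other peptides, stood at 53.6, 74.7, 71.3 and 51.2 CPM in LLRCs against 107.0, 95.8, 114.9 and 179.4 CPM in non-LRC cells, again without overlap (log2 fold change -0.99, standard error 0.29, unadjusted p = 0.00826, adjusted p = 0.546 in the same edgeR test). Ackr3, an atypical chemokine receptor that also binds opioid peptides, stood at 2.60 ± 2.27 and 19.2 ± 13.8 CPM and was lower in LLRCs of 3 of 4 mice, with JV621 as the exception (log2 fold change -2.87, standard error 0.90, unadjusted p = 0.0109, adjusted p = 0.589 in the same edgeR test). Mme, which encodes neprilysin, a protease that degrades enkephalins, stood at 152.8 ± 37.2 and 147.8 ± 28.8 CPM, a log2 fold change of 0.05 with a standard error of 0.28.

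Among the genes downstream of the receptors, Adcy4, an adenylyl cyclase, had 0, 3, 1 and 1 counts in LLRCs against 21, 54, 22 and 53 in non-LRC cells. Its log2 fold change was -5.38 (standard error 1.00, unadjusted p = 0.000405, adjusted p = 0.124 in edgeR's test). The study listed Cpe and Adcy4 among its changed genes from these same libraries, so their direction is not independent evidence. Altogether 4 of the 53 pathway genes (Slc6a13, Cpe, Ece1 and Adcy4) had their highest LLRC value below their lowest non-LRC value, a pattern found in 1.91% of all genes tested, and none had the reverse. The summed level of the endothelial markers was also lower in LLRCs, at 29.2 to 58.9 CPM against 208 to 822 CPM. Single endothelial markers such as Lyve1, Tie1 and Sox17 overlapped between the groups. The summed level of 10 stellate cell and fibroblast markers was lower in LLRCs of each mouse, at 277 to 884 CPM against 698 to 2839 CPM. Most of this sum in non-LRC cells came from Dcn (499, 486, 2311 and 1815 CPM, against 66.2, 360, 553 and 386 CPM in LLRCs). Single markers such as Reln were higher in LLRCs of some mice. Slc6a13 was highest in the non-LRC libraries of JV624 and JV6314 (20.5 and 11.2 CPM), where the summed markers of several cell types were also highest. These were stellate cells and fibroblasts (2839 and 2398 CPM), hepatocytes (6530 and 4909 CPM, against 2109 to 3239 CPM elsewhere), mesothelial cells (931 and 794 CPM) and Kupffer cells (22.7 and 16.0 CPM). The part of these cells in the levels of these genes was not tested. The Gi subunit Gnai3, with which opioid receptors can couple, was read at 286.8 ± 24.0 CPM in LLRCs against 267.3 ± 98.2 CPM in non-LRC cells, with an adjusted p = 1 in edgeR's test. Gnaq, with which Chrm3 couples, stood at 133.5 ± 53.0 and 76.4 ± 25.4 CPM (log2 fold change 0.80, standard error 0.38, unadjusted p = 0.0622 in the same edgeR test). Grk4, a kinase of G protein coupled receptors, stood at 4.58 ± 2.94 CPM in LLRCs against 0.860 ± 1.64 CPM in non-LRC cells and was higher in LLRCs of all 4 mice. Its log2 fold change was 2.37 (standard error 1.35, unadjusted p = 0.113 in edgeR's test), and its unadjusted p was 0.0227 with the mouse as a block (adjusted p = 0.992). The potassium channels gated by G proteins had 0 to 12 counts in all in any library.

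Acetylcholine, the ligand of Chrm3, is degraded by cholinesterases, of which Bche was abundant, with 806.6 ± 227.7 CPM in LLRCs against 601.0 ± 285.9 CPM in non-LRC cells (log2 fold change 0.42, standard error 0.42, adjusted p = 1 in edgeR's test). Chat, which makes acetylcholine, had 2 counts in the LLRC library of JV6314 and none elsewhere. Slc5a7, the transporter of its precursor choline, was read in LLRCs of JV621 only, with 22 counts.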

How the data were processed

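RNA of 8 sorted cell samples was sequenced. The authors had the reads mapped as a service at EMBL (the aligner is not given in the sources used here). With HTSeq, ignoring strand and in its union setting, reads were then counted over annotated Ensembl exons of the build GRCm38.p4. The deposited counts per gene are not normalized. The deposited table of the authors' edgeR 3.2.4 comparison (fold changes, abundances, p-values) was not used. Other per-sample columns numbered 0.

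Groups came from the sample titles. Genes passing filterByExpr were scaled by TMM and tested with edgeR 4.0.16 (quasi-likelihood test, group as the only term, R 4.3.3) with Benjamini-Hochberg adjustment at 0.05. DESeq2 1.42.0 and limma 3.58.1 served as alternatives. The fit was tested on simulated data. Counting intervals of the pooled ratios (summed counts over summed effective library sizes) are exact 95% intervals, and since PCR reads are not independent molecules, they and the floor of 3 counts cover counting error only. The libraries are separate mice, 4 per group, and the libraries of a mouse pair by animal (r of their deviations 0.0936, 0.0847, 0.00421 and 0.179 for JV602, JV621, JV624 and JV6314). Members and lists were chosen with earlier results of these data known. All members were named, as were, from each pathway list, the 2 most abundant genes, the 2 largest changes and any gene at an unadjusted p below 0.05, or part of these. Of the receptor and opioid precursor lists, genes with 3 or more counts in any library could also be named. Other genes named with few or no counts (such as Gad1, Gad2, Slc32a1, Penk, Oprl1, Chat and Slc5a7) lie outside this rule and were chosen after their values were seen. For likeness, the 3 genes with the highest correlation were named. Symbols and positions came from GENCODE M21 for 46005 of 46603 genes. Coding sequences from the same annotation were aligned with MAFFT 7.526. Some genes are not reported here.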

Additional observations from a re-analysis of the deposited data

Results flagged for a closer look

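In 6 of 25 groups of 4 values, a single library stood far from the others, and chance does so in about 1 of 20 groups with normally spread values. In non-LRC cells these were Gabrb1 in JV621 (96.3 CPM), Oprk1 in JV602 (0.125 CPM, from 1 count), and Gabra4 and Oprd1 in JV6314 (0.395 and 0.592 CPM, from 2 and 3 counts). In LLRCs they were Gabrb2 and Oprm1 in JV621 (0.118 and 2.25 CPM). All but the values of Gabrb1 and Oprm1 rest on 3 counts or fewer, so that 3 libraries at 0 set the distance.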

How the results depend on the processing

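Genes past adjustment numbered 0 by the quasi-likelihood test of edgeR, 11 by the same test with no filter, 221 by DESeq2 and 115 by the exact test with no filter, and 0 to 6 when 1 library was left out, with 6 only without the non-LRC library of JV602. The number at an unadjusted p below 0.05, 702, was 1844 without a filter, 1285 in the exact test and 496 to 1273 when 1 library was left out, with 1273 without the non-LRC library of JV621. Of the pathway genes, 5 (Slc6a13, Ackr3, Cpe, Ece1 and Adcy4) passed adjustment in DESeq2 and 2 (Cpe and Adcy4) in the exact test. In the quasi-likelihood test they numbered 0 with all libraries and 0 when any library was left out, which was not run for the other tests. Those at an unadjusted p below 0.05 were 6, 11 without a filter and 5 to 11 when 1 library was left out, with 11 without the non-LRC library of JV621. With library size alone as the scaling, 138 of 672 genes at an unadjusted p below 0.05 were higher in LLRCs, against 217 of 702, whereas in limma 576 of 891 were higher, with 3 of 9 pathway genes. With the mouse as a replicate block, the paired fit gave 0 genes past adjustment, 569 at an unadjusted p below 0.05 (234 higher in LLRCs) and 6 pathway genes, of which 1 (Grk4) was higher. Gabbr1 no longer passed. The difference of Oprk1 in mean log2(CPM + 0.5), 4.22, was 5.11 with a pseudocount of 0.25 CPM, 2.51 with 2 CPM, and 3.89 to 4.52 when 1 library was left out. That of Gabrb1, -2.51, was -3.35 to -0.82 when 1 library was left out. Members with few counts are limited by depth.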
